A study of Drosophila melanogaster with 2 samples.

Results

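Peaks at stand-alone coding promoters were the ChIP-seq peaks of a CG10321-eGFP fusion protein whose summit lay within 500 bp of the nearest protein-coding transcription start site (TSS), at a start site without a head-to-head neighbour. A head-to-head neighbour was a start site of another protein-coding gene on the opposite strand, lying upstream and within 1000 bp, so that both genes are transcribed away from the sequence between them. Of the 3006 peaks of the conservative list on the main chromosome arms, 874 met this definition (29.1%, Wilson 95% interval 27.5 to 30.7). They fell on 821 start sites of 771 genes. A further 436 peaks lay at head-to-head coding promoters and 1696 lay more than 500 bp from any coding start site. The sample was whole embryos of Drosophila melanogaster, 0 to 24 h old, from a line with a transgene for CG10321 tagged with enhanced green fluorescent protein (eGFP). Chromatin was sonicated to 200 to 800 bp and pulled down with anti-GFP antibody, in 2 biological replicates of 1 group. Whole embryos of this age range mix all embryonic cell types and stages, and the tagged protein is expressed from an added copy of its gene. The files hold called peaks without read counts, so sequencing depth is unknown, and no control library was analysed here.

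In flies, stand-alone and divergent promoters tend to differ in the genes they serve. Divergent pairs are rich in broadly expressed genes and in elements such as the DRE and the Ohler motifs, while developmental genes more often have a promoter of their own, with an initiator and a DPE (downstream promoter element). GA repeats in such promoters are bound by GAGA factor, the product of Trl, and by other GA-repeat proteins such as Psq and CLAMP. GAGA factor is known for keeping promoter chromatin open and for its presence at promoters with stalled RNA polymerase II. CG10321 was assayed as a transcription factor, per the labels.

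The sequences around the summits of 8 peaks show what the strongest stand-alone promoters held and how long the GA repeats became. Each covers 50 bases to either side of the summit, read 5′ to 3′ on the strand of the gene, from the RefSeq copy of dm6. Capitals mark uninterrupted runs of alternating G and A, or C and T, of at least 5 letters, and the word GCGAG on either strand. Eyg at chr3L:12468139-12468239, oc at chrX:8650917-8651017, Sox21b at chr3L:14131774-14131874 and nsl1 at chr3R:15793629-15793729 are among 12 of the strongest peaks whose windows lay outside annotated exons. Cad at chr2L:20770514-20770614 and dikar at chr3L:6742386-6742486 are shown because they are equally strong and hold neither a run nor the word. Sox21a at chr3L:14108286-14108386 and CG6231 at chr3R:19623776-19623876 have 2 of the 5 longest GA repeats, at lower signals. The genes nsl1 and cad are on the plus strand and the others on the minus strand.
eyg: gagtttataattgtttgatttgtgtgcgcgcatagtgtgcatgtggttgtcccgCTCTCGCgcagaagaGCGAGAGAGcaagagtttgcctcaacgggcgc
oc: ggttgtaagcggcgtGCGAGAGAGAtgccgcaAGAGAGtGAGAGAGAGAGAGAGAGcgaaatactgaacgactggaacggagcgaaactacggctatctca
Sox21b: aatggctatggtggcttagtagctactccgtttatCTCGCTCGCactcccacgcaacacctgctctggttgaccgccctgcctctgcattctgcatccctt
nsl1: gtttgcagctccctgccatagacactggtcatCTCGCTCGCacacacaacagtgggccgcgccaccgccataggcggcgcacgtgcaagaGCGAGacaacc
cad: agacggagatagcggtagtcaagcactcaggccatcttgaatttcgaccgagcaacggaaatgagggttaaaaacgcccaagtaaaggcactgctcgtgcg
dikar: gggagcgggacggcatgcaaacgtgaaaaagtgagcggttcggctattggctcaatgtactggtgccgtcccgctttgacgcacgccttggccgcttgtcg
Sox21a: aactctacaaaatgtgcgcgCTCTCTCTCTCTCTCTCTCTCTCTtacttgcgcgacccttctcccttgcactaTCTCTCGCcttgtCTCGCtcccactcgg
CG6231: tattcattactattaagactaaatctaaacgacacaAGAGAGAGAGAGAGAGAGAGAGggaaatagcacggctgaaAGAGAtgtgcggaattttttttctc
Of these 12 strong windows, 10 held some capital letters, 9 held GCGAG and 2 held the GAGA element GAGAGAG. In eyg and oc the word and the repeat ran into each other, and in Sox21b and nsl1 the word occurred without a long repeat.

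Summits at stand-alone promoters lay upstream of the start site, and the stronger the peak the more often they did. Of the 874 summits, 655 were upstream (74.9%, Wilson 95% interval 72.0 to 77.7), 216 were downstream and 3 were on the start site. The median summit lay 119 bp upstream, and 443 summits (50.7%) lay between 50 and 250 bp upstream. Peaks were divided by signal, a value per peak from the authors' peak caller on a scale not given, into 4 groups of 218 or 219, with group 1 the strongest. In group 1, with signals from 254 to 4854, 184 of 218 summits were upstream (84.4%, 79.0 to 88.6) at a median of 146 bp. Group 2 (111 to 254) had 79.5% upstream (73.6 to 84.3) at a median of 144 bp. Group 3 (74.6 to 111) had 75.2% upstream (69.1 to 80.5) at a median of 103 bp. The weakest peaks had the lowest share and the shortest distance. Group 4 (2.06 to 74.6) had 60.7% upstream (54.1 to 67.0) at a median of 52 bp. The share of summits between 50 and 250 bp upstream was 67.4% in group 1, 53.0% in group 2, 46.3% in group 3 and 36.1% in group 4. In the replicates' own thresholded lists the upstream share was 77.2% in replicate 1 and 80.6% in replicate 2.

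**Figure D1:**
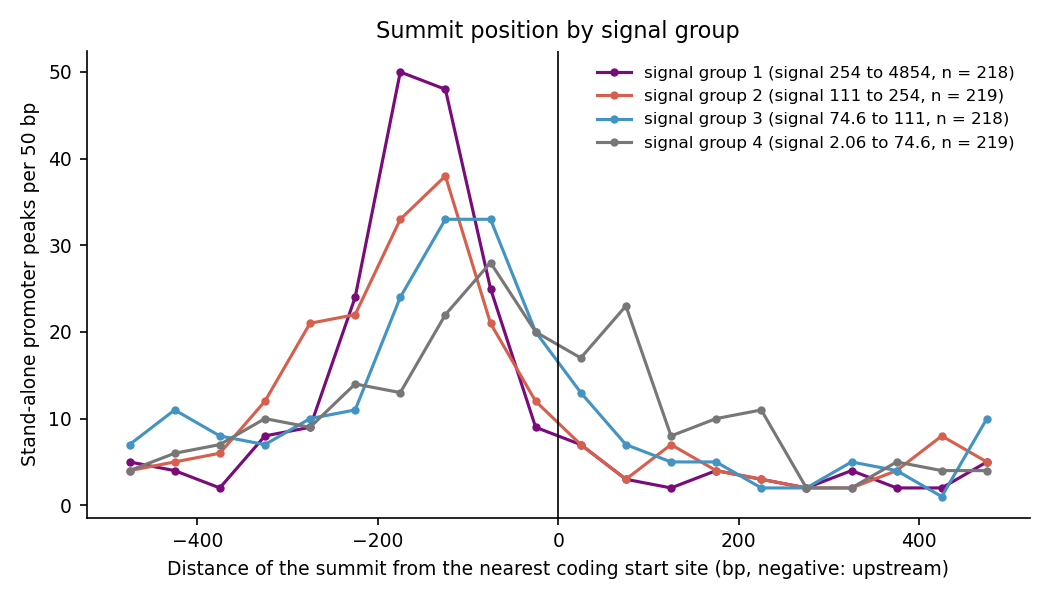
Number of stand-alone promoter peaks (y axis, per 50 bp) by distance of the summit from the nearest coding start site (x axis, bp, negative values upstream), for the 4 signal groups. The strongest group is concentrated between 200 and 100 bp upstream, with 50 and 48 peaks in its highest bins, while the weakest group spreads across the start site and has 23 peaks from 50 to 99 bp downstream.

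The 500 bp limit cut through a low and even part of the distribution. At stand-alone start sites, 44 summits lay 451 to 500 bp away (median signal 100.8) and 42 lay 501 to 550 bp away (median signal 111.0). For the 1000 bp limit, 3 promoter peaks had a head-to-head start site 951 to 1000 bp away and were left out, and 11 had one 1001 to 1050 bp away and were kept. By annotation, 338 summits (38.7%) were intergenic, 273 (31.2%) were in an intron of the same gene through another of its transcripts or downstream of the start site, and 194 (22.2%) were in a UTR. Introns of another gene held 30, coding sequence 22 and other exons 17.

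The 25 strongest peaks that overlapped a thresholded peak of each replicate had signals of 2580.3 to 4854 in the list of both replicates. The replicates' own ranked lists gave them 1272 to 2710.1 in replicate 1 and 1135 to 2117 in replicate 2, and 24 of the 25 were higher in replicate 1. Of the 25 summits 24 were upstream of the start site, 17 of them between 50 and 250 bp. Of the 25 peaks, 16 were at genes of 5 lists of developmental regulators, nearly all of them transcription factor genes, described further on.

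Among homeobox genes, otp, a regulator of neurons and the hindgut, had a signal of 4188, with 2382 in replicate 1 and 1803 in replicate 2, 251 bp upstream. Toy, a Pax6 gene that acts in eye development, had 3619.9 (1965 and 1659 in replicates 1 and 2), 121 bp upstream. Ap, which defines dorsal wing cells and classes of neurons, had 3552 (1937 and 1628), 146 bp upstream. All of these values stood far above the median stand-alone promoter peak, whose signal was 111. Other homeobox genes were the Pax gene eyg (3424), the head genes oc (3401) and ems (3335) and the posterior determinant cad (3325). Further ones were the neuronal regulator unc-4 (2959), the Hox genes abd-A (2946) and lab (2824), and E5 (2698), a neighbour and relative of ems. The summits at these genes lay between 91 and 286 bp upstream.

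Other developmental regulators had signals in the same range. The GATA factor gene grn had 3451 (2098 in replicate 1 and 1339 in replicate 2), 200 bp upstream. The Sox gene Sox21b had 3396 (1878 and 1532), with a summit exactly 500 bp upstream, at the limit of the definition. The pair-rule gene opa had 3298 (1689.8 and 1573), the head gap gene btd 2580.3 (1272 and 1299), and vg, a wing selector gene, 3086 (1719.8 and 1372). Btd was the gene that was not higher in replicate 1. Tai, a coactivator of the ecdysone receptor, had 2993, and Su(z)2, a Polycomb group gene, 2784.

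Further strong peaks were at genes outside these groups, several of them with general cellular roles. Ip6k, which encodes an inositol hexakisphosphate kinase, had the highest signal, 4854 (2710.1 and 2117), 90 bp upstream. It lies 7.69 kb from the gene of the tagged protein. Binding there and signal from transgene copies cannot be told apart. Dikar had 4104 (2425 and 1659.7), with its summit 307 bp downstream of the start site, the one downstream summit among the 25. CG11151 had 3667 at 14 bp upstream, scny, a ubiquitin-specific protease gene, 3450.5 at 213 bp, nsl1, a subunit gene of the non-specific lethal chromatin complex, 3157 at 103 bp, and Gbeta13F, a G protein beta subunit gene, 2667 at 28 bp.

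The promoter of CG10321 itself carried a peak 9 bp upstream of its start site, with a signal of 1100.0. Replicate 1 had 880.1 there and replicate 2 had 270.0. The ratio exceeded 1.34, the upper quartile over all stand-alone promoter peaks. Here too, binding and signal from the transgene cannot be told apart.

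Agreement between the replicates went with signal. The list that gives the signal drew on both replicates, so signal and presence in the replicates' lists are not independent. A weak peak beside a stronger one can also match the replicate peak of its neighbour. Of the 874 peaks, 440 (50.3%, Wilson 95% interval 47.0 to 53.6) overlapped a thresholded peak of both replicates, 103 one of replicate 1 alone, 147 one of replicate 2 alone and 184 neither. The median signal was 249 for peaks in both lists, 87.7 for those in the replicate 1 list alone, 90.5 for those in the replicate 2 list alone and 62.2 for those in neither. All 218 peaks of signal group 1 were in both lists, as were 171 of 219 in group 2, 39 of 218 in group 3 and 12 of 219 in group 4. In the ranked lists, 866 peaks had a counterpart in both replicates, and the replicate 1 value was the higher one in 474 (54.7%). Across these peaks, which are not independent replicates, Spearman's rho of the values was 0.764. At head-to-head promoters 202 of 436 peaks were in both lists (46.3%, 41.7 to 51.0). The difference of 4.01 percentage points (95% interval -1.73 to 9.70) did not pass Fisher's exact test after Benjamini-Hochberg adjustment over the 4 shares compared between the promoter classes (exact adjusted p = 0.18). Its direction turned among the stronger peaks, with 82.7% at stand-alone and 85.7% at head-to-head promoters (-3.03 points, exact adjusted p = 0.33). With the peaks of 1 replicate's list in place of the list of both, it was 0.425 points without replicate 1 (exact adjusted p = 0.94) and 6.40 points without replicate 2 (0.052).

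**Figure D2:**
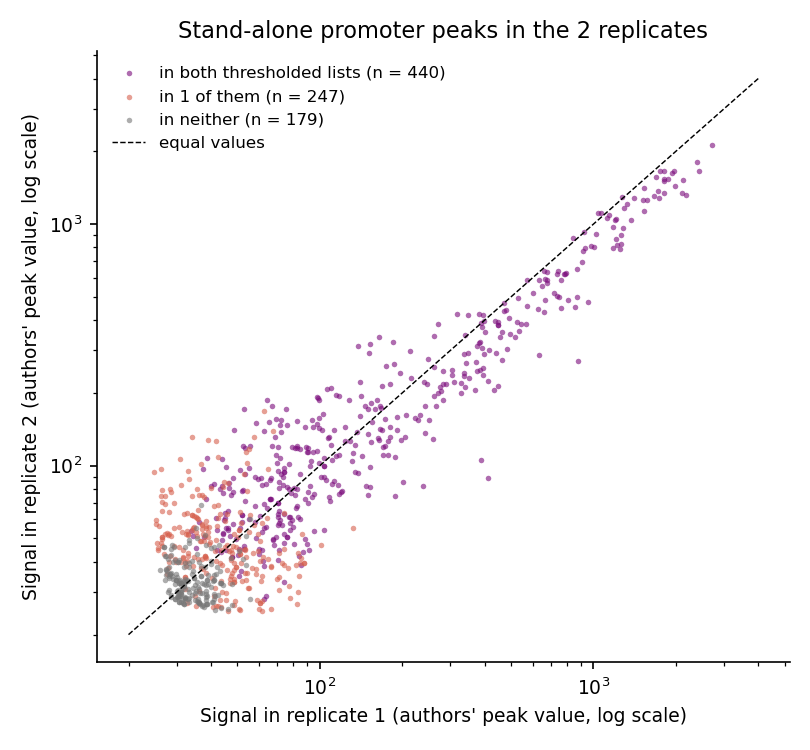
Signal of 866 stand-alone promoter peaks in replicate 1 (x axis) and replicate 2 (y axis), both the authors' peak values on log scales, coloured by presence in the thresholded lists; the dashed line marks equal values. The strongest peaks lie just below the line, and the points found in neither thresholded list crowd at the low end.

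Very strong peaks made up a larger share of the stand-alone promoter peaks, while the share above the common median did not pass a test against head-to-head promoters. The median signal was 111 at stand-alone promoters (quartiles 74.6 and 253), 102 at head-to-head promoters and 94.8 outside coding promoters. Of the stand-alone promoter peaks 450 (51.5%, Wilson 95% interval 48.2 to 54.8) exceeded 108, the median of both promoter classes together, against 205 head-to-head promoter peaks (47.0%, 42.4 to 51.7). The difference of 4.47 points (-1.27 to 10.2) did not pass (Fisher's exact test, adjusted p = 0.18). In the upper tail, 80 stand-alone promoter peaks (9.15%, 7.42 to 11.2) exceeded 1000, against 18 head-to-head promoter peaks (4.13%, 2.63 to 6.43) and 71 peaks outside coding promoters (4.19%, 3.33 to 5.25). The tail was chosen after the distributions had been seen and was not tested. Among the peaks at or above the median signal of the list, the share above their own common median was 54.4% at stand-alone and 40.2% at head-to-head promoters, which passed (Fisher's exact test, adjusted p = 0.001). The difference also passed without replicate 1 (9.40 points, exact adjusted p = 0.0099) and without replicate 2 (14.1 points, exact adjusted p = 9.9e-05). With the genes of the 5 regulator lists left out, the shares were 49.8% and 50.2% (exact adjusted p = 0.90, a setting added after the data had been seen).

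The weakest peaks of the list lay beside stronger ones. All 26 stand-alone promoter peaks with a signal under 20 overlapped another peak of the list, against 88 of all 874 (10.1%). The 5 lowest, with signals of 2.06 to 5.01, were at CG15237, Gs2, wun, Pvf3 and lute. At wun, the weak peak (3.68) and its stronger neighbour (151) were matched to the same replicate peaks, 74.1 in replicate 1 and 94.2 in replicate 2, so its replicate values do not belong to the weak peak alone.

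GA repeats were more frequent at stand-alone than at head-to-head promoter peaks. Of 20 consensus sequences searched within 50 bp of the summits on both strands, 2 (10%) differed between the classes after adjustment, 1 in each direction. The GAGA element GAGAGAG was present at 106 of 874 stand-alone promoter peaks (12.1%, Wilson 95% interval 10.1 to 14.5) and at 14 of 436 head-to-head promoter peaks (3.21%, 1.92 to 5.32). The difference was 8.92 points (6.01 to 11.6; Fisher's exact test, adjusted p = 4.3e-07 over the 20 sequences and 8.6e-08 over the 4 shares). Ohler motif 6, an element of divergent and housekeeping promoters, was at 0 of 874 stand-alone summits, which allows a share of up to 0.343%, and at 9 of 436 head-to-head summits (2.06%; Fisher's exact test, adjusted p = 0.00047). The Ohler motif 6 call was lost in the list of replicate 2 alone (exact adjusted p = 0.11), in that of replicate 1 alone (0.065) and among the stronger peaks (0.098), each with fewer peaks. The DRE TATCGATA, the site of the factor DREF, was at 1.26% of stand-alone and 2.98% of head-to-head summits (Fisher's exact test, adjusted p = 0.17). The homeodomain core TAATTA was at 5.49% and 8.94% (exact adjusted p = 0.12), and the Zelda site CAGGTAG at 0.458% and 0.459% (exact adjusted p = 1). The G and C content of the summit windows was 44.3% ± 12.8 at stand-alone and 38.0% ± 12.7 at head-to-head promoters (SD over 874 and 436 windows), and its part in these differences was not tested.

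Against the 1696 peaks outside coding promoters, the stand-alone promoter peaks held some promoter elements more often, and no difference in the GAGA element was called. Of the 20 sequences 3 (15%) passed, all more frequent at stand-alone promoters, and none of them exceeded 4% of summits. Ohler motif 7 was at 3.32% of stand-alone promoter summits and 1.30% of summits outside promoters (Fisher's exact test, adjusted p = 0.0085). The DRE was at 1.26% and 0.177% (exact adjusted p = 0.0085) and the core of Ohler motif 1, GGTCACAC, at 1.26% and 0.236% (exact adjusted p = 0.014). None of the 3 passed among the stronger peaks, in the replicate 2 list alone or with a 1000 bp promoter limit, where 0 of 20 sequences passed. Without replicate 2, the difference for Ohler motif 7 did not pass either (exact adjusted p = 0.64), nor did that for Ohler motif 1 with a head-to-head limit of 2000 bp (0.41) and with the limit applied to any start site of the gene (0.16). The GAGA element was at 12.1% and 13.4%, a difference of -1.32 points (-3.94 to 1.48; Fisher's exact test, adjusted p = 0.78).

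GAGA elements were found at a larger share of the stronger peaks, and in both orientations. The element was at 41 of 218 peaks of signal group 1 (18.8%, Wilson 95% interval 14.2 to 24.5), 28 of 219 in group 2 (12.8%), 22 of 218 in group 3 (10.1%) and 15 of 219 in group 4 (6.85%, 4.19 to 11.0). Peaks outside coding promoters in the same signal ranges had 21.9%, 14.6%, 14.8% and 6.99%, so the rise with signal was not particular to stand-alone promoters. Head-to-head promoter peaks in these ranges had 8.22%, 2.46%, 1.49% and 2.80%. The difference between the promoter classes passed within groups 2 and 3 (Fisher's exact test, adjusted p = 0.0034 in each). It missed the threshold in group 1 (0.056) and group 4 (0.20). These tests were added after the data had been seen. Of the 106 peaks, 55 had the element on the strand of the gene, 47 on the other strand and 4 on both. The nearest element lay a median of 20 bp from the summit, upstream of it in 50 peaks and downstream in 54. The search reached only 50 bp to either side, which bounds this distance, and closeness to the summit was not tested. The median signal was 164 for the 106 peaks with the element (quartiles 92.8 and 464) and 107 for the others (72.5 and 230.3).

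Long GA repeats marked a few stand-alone promoters. Within 100 bp of the summit, an uninterrupted GA run of at least 10 letters was found at 56 of 874 peaks (6.41%, Wilson 95% interval 4.97 to 8.23), against 4 of 436 head-to-head promoter peaks (0.917%, 0.357 to 2.33) and 135 of 1696 peaks outside coding promoters (7.96%, 6.76 to 9.35). Runs of at least 15 letters were at 18 stand-alone promoter peaks (2.06%), at 0 of 436 head-to-head promoter peaks and at 62 of 1696 peaks outside coding promoters (3.66%). The longest run, 29 letters, was at Pdk1, a kinase gene of the insulin pathway (signal 304; 155 in replicate 1 and 152 in replicate 2). Fne, which encodes a neuronal RNA-binding protein, had 28 letters (80.4; 38.0 and 38.1), Sox21a 24 (199.8; 119.9 and 77.6), CG6231 22 (76.9; 47.0 and 32.8) and CG6867 21 (200.2; 92.6 and 105). None of these 5 was among the 25 strongest peaks. Trl, the gene of GAGA factor, had a run of 20 letters within 100 bp of a summit 103 bp upstream of its start site (signal 622; 395 and 238).

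Several of the words whose share differed most between the strongest and the weakest peaks resemble a GA repeat interrupted by a C. Words of 6 letters within 50 bp of the summit were ranked by the difference between signal groups 1 and 4 of the stand-alone promoter peaks, and the 10 with the highest difference are described without a test because they were chosen by it. GCGAGA came first, at 92 of 218 peaks in group 1 (42.2%) and 17 of 219 in group 4 (7.76%). AGCGAG followed with 42.2% and 8.68%, GAGCGA with 37.6% and 7.76%, and GTGCGA with 33.5% and 8.68%. Of the 492 words with as many G and C letters, the median word was in 4.13% of group 1 and 3.20% of group 4. Of the 10 words 4 hold the 5 letters GCGAG on either strand, and this shorter word, picked after the words had been seen, was at 140 of 218 peaks in group 1 (64.2%), 26.9% in group 2, 21.1% in group 3 and 23.3% in group 4. The share was high in group 1 alone. The G and C content of the windows was 51.6% ± 11.4 in group 1 and 45.0% ± 10.9 in group 4 (SD over windows), and the part of base composition was not tested.

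Peaks that the choice of words had not used showed the same order. Outside coding promoters GCGAG was at 170 of 270 peaks in the signal range of group 1 (63.0%, Wilson 95% interval 57.1 to 68.5) and at 113 of 529 in that of group 4 (21.4%, 18.1 to 25.1). At head-to-head promoters it was at 25 of 73 (34.2%, 24.4 to 45.7) and 18 of 107 (16.8%, 10.9 to 25). In group 1 of the stand-alone promoter peaks, 36 peaks held both GCGAG and GAGAGAG, and 145 (66.5%) held at least 1 of them. Around start sites, which include those of the peaks the word was chosen from, with windows from 250 bp upstream to 50 bp downstream, GCGAG was at 450 of the 821 start sites with a peak (54.8%) and at 4147 of 12418 stand-alone start sites without one (33.4%), and at 32.0% of all 19276 coding start sites. Here and below, a start site counted as having a peak only where it was the nearest to a summit. Other start sites within 500 bp of a summit were counted among those without. The GAGA element was in the same window at 210 of 821 (25.6%, 22.7 to 28.7) and at 1022 of 12418 (8.23%, 7.76 to 8.73), and at 7.64% of all coding start sites.

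**Figure D3:**
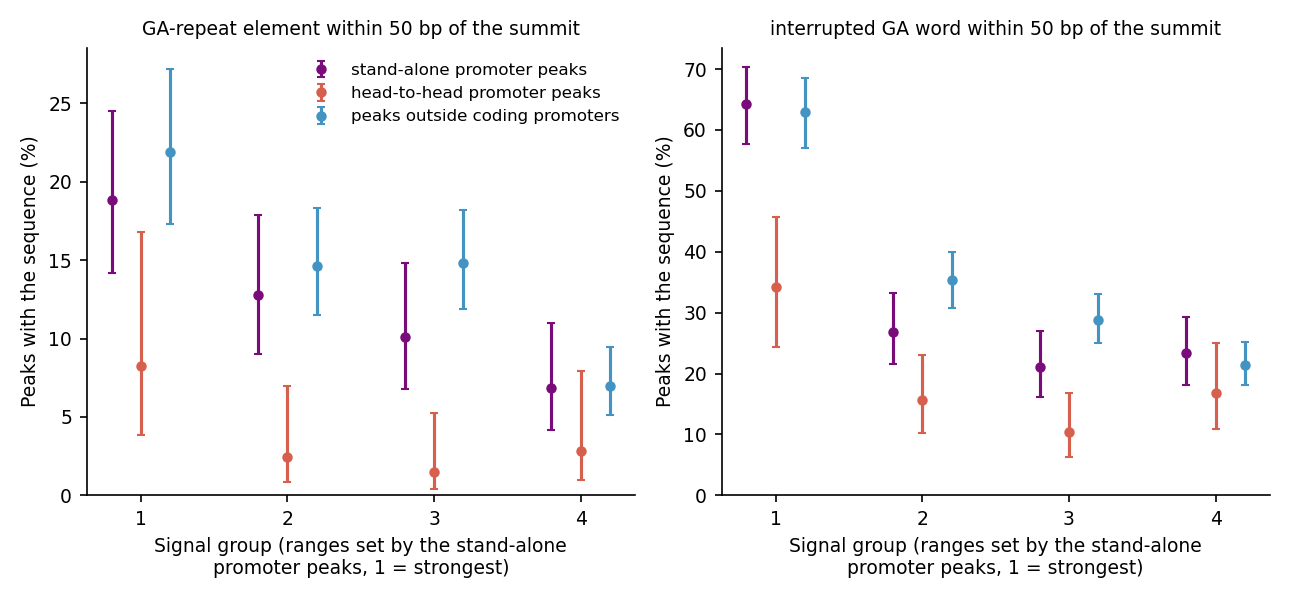
Share of peaks (y axis, percent, with Wilson 95% intervals as bars) that hold the GA-repeat element (left) or the interrupted GA word of 5 letters (right) within 50 bp of the summit, by signal group (x axis) and class of peak. At stand-alone promoters the repeat stands at 18.8% in group 1 and 6.85% in group 4, and the interrupted word at 64.2% in group 1 and at 21.1% to 26.9% in the others.

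The start sites under stand-alone promoter peaks had another set of core promoter sequences than those under head-to-head promoter peaks. In windows from 100 bp upstream to 50 bp downstream, 9 of 10 sequences (90%) differed between 821 stand-alone and 430 head-to-head start sites, 3 higher and 6 lower at stand-alone start sites. Start sites without a peak, that is not the nearest to any summit, differed between the classes too, with no test made. Among these the initiator was at 33.0% of stand-alone and 19.5% of head-to-head start sites. The DRE was at 3.67% and 12.1% and Ohler motif 7 at 3.56% and 11.9%, while TATAAA went the other way, at 17.1% and 14.6%. The initiator TCAGT, which lies at the start site of many regulated genes, was at 285 stand-alone start sites (34.7%) and 78 head-to-head start sites (18.1%; difference 16.6 points, 11.5 to 21.3; Fisher's exact test, adjusted p = 1.9e-09). The GAGA element was at 13.9% and 2.79% (exact adjusted p = 2.1e-10). The DPE core AGACG, a contact of TFIID downstream of the start site, was at 11.3% and 6.74% (exact adjusted p = 0.011). The initiator, TATA, DPE and TCT letters were searched on the strand of the gene and the others on both strands, anywhere in the window and not at a fixed spacing.

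Elements of broadly expressed promoters were rarer at the stand-alone start sites. Ohler motif 7 was at 6.09% of stand-alone and 16.5% of head-to-head start sites (Fisher's exact test, adjusted p = 3.1e-08). The DRE was at 3.65% and 10% (exact adjusted p = 2.3e-05), and the core of Ohler motif 1 at 4.26% and 10.9% (2.3e-05). The core CAGCTG of Ohler motif 5 was at 14.1% and 19.5% (exact adjusted p = 0.016) and Ohler motif 6 at 1.10% and 3.49% (0.011). The TATA box TATAAA, an element of regulated promoters, was rarer too, at 6.09% and 10.9% (exact adjusted p = 0.006). The TCT initiator core TCTTTC, known from ribosomal protein genes, was at 7.31% and 8.37% (0.50). The calls of the DPE core, the TATA box and Ohler motifs 5 and 6 were lost in the replicate 1 list alone, and those of the DPE core and Ohler motif 6 also in the replicate 2 list alone.

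Against stand-alone start sites that were not the nearest to a summit, the intervals overlapped for 4 of the 10 sequences, among them the initiator and the DRE. They lay apart for the other 6. The initiator was at 34.7% (31.5 to 38.0) of stand-alone start sites with a peak and 33.0% (32.2 to 33.9) of those without, and the DRE at 3.65% and 3.67%. TATAAA was at 6.09% (4.65 to 7.94) of stand-alone start sites with a peak and 17.1% (16.5 to 17.8) of those without. The GAGA element was at 13.9% (11.7 to 16.4) and 4.18% (3.84 to 4.55). The DPE core was at 11.3% (9.34 to 13.7) and 8.72% (8.24 to 9.23), Ohler motif 7 at 6.09% (4.65 to 7.94) and 3.56% (3.25 to 3.90), the core of Ohler motif 5 at 14.1% (11.9 to 16.7) and 9.43% (8.93 to 9.96), and the TCT initiator core at 7.31% (5.72 to 9.29) and 4.70% (4.34 to 5.09). These shares were not tested. At head-to-head start sites the GAGA element was at 2.79% of those with a peak and 2.69% of those without. The latter can include the partner of a start site with a peak.

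**Figure D4:**
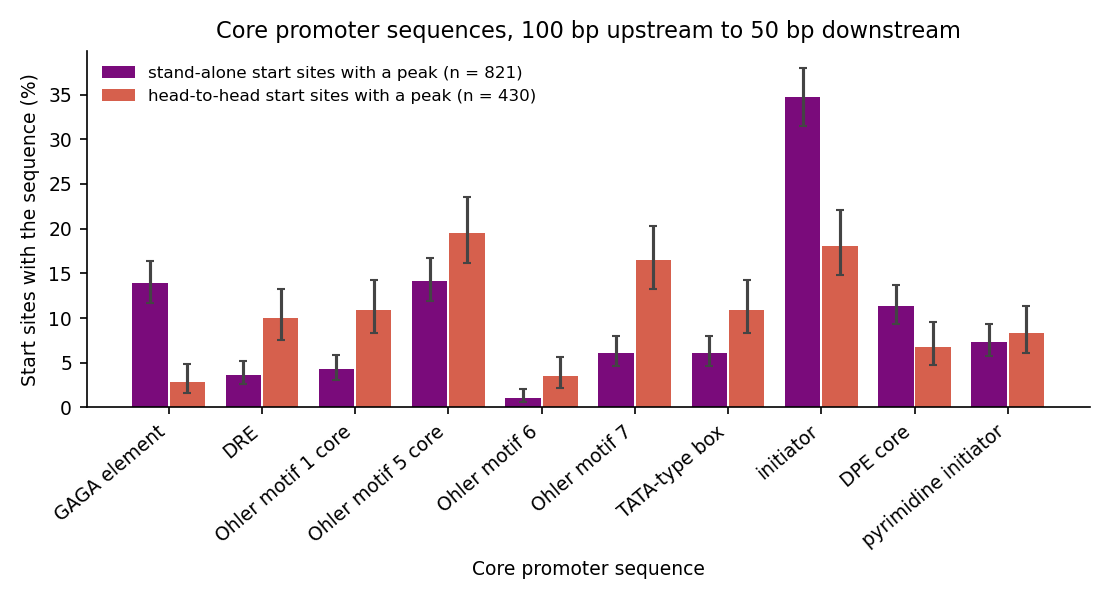
Share of start sites (y axis, percent, with Wilson 95% intervals as bars) that hold each core promoter sequence (x axis) from 100 bp upstream to 50 bp downstream, for 821 stand-alone and 430 head-to-head start sites with a peak. The initiator stands at 34.7% and 18.1%, the GAGA element at 13.9% and 2.79%, and Ohler motif 7 at 6.09% and 16.5%.

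A stand-alone coding gene was less likely to carry a promoter peak at any start site than a gene with a head-to-head neighbour. Counting as stand-alone the 8916 genes without a head-to-head neighbour at any of their start sites, 671 had a peak (7.53%, Wilson 95% interval 7.0 to 8.09). Of 5052 genes with such a neighbour 512 had one (10.1%, 9.33 to 11.0). The difference was -2.61 points (-3.62 to -1.63; Fisher's exact test, adjusted p = 2.9e-07). It was smaller without replicate 1 (-1.45 points), without replicate 2 (-1.70) and among the stronger peaks (-0.966, exact adjusted p = 0.016), and passed in each. A peak between paired start sites was assigned to the nearer of them. The remaining 100 of the 771 genes had a head-to-head neighbour at another of their start sites. They are counted among the 512, because a peak at any start site of the gene counted. Peaks at head-to-head start sites themselves were at 426 of the 5052 genes. The part that counting a peak at any start site had in the difference was not tested. On X 132 of 1413 stand-alone genes carried a peak (9.34%, 7.93 to 11.0), and on the other major arms the share ran from 6.85% to 7.82%.

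Of the 22 gene lists, 4 of the 5 lists of developmental regulators held the highest shares, against the 7.53% of all stand-alone coding genes. The lists were described by counts without a test, a gene may be in several, and the signal given for a gene is that of its strongest peak. In the 5 lists of regulators together, 90 of 186 stand-alone genes had a peak (48.4%, Wilson 95% interval 41.3 to 55.5), with a median signal of 670.5. All other stand-alone genes had 581 of 8730 (6.66%, 6.15 to 7.20), with a median of 108. The 99 peaks at genes of these lists lay upstream in 91 (91.9%) at a median of 171 bp, against 564 of the other 775 (72.8%) at a median of 107 bp. GAGAGAG was at 24 of the 99 summits (24.2%, 16.9 to 33.5) and 82 of the 775 others (10.6%, 8.61 to 12.9). With the genes of these lists left out, the GAGA element was still at 10.6% of stand-alone and 3.21% of head-to-head promoter peaks (Fisher's exact test, adjusted p = 4.4e-06). Signal group 1 held 69 of the 99 peaks.

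Of the 8 Hox genes, which assign identity along the body axis, 6 had a peak. Abd-A had 2946 (1659 in replicate 1 and 1300.2 in replicate 2), lab 2824 (1575 and 1263), Scr 1202 (646 and 553) and Dfd 859 (516 and 341), all upstream. Pb had 325 at 291 bp downstream, and Abd-B 123. All 6 were higher in replicate 1, and the signals spanned a wide range within this 1 family.

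Among homeobox genes listed as outside the Hox complexes, a list that also held Dfd, 40 of 66 had a peak (60.6%), with a median signal of 944, and all 40 summits were upstream. Below the genes already named were scro (2526), Optix (2459), a regulator of eye development, Ptx1 (2251) and the LIM homeobox gene Lim1 (2239). Among genes of anterior-posterior and dorsal-ventral patterning 26 of 44 had a peak (59.1%, median signal 569.7), led by oc, ems, cad, opa and btd. The segment polarity gene wg (2222) came next, with en (2049.7) and inv (2036), and cnc (98.1) and nub (90.5) stood lowest. The pair-rule genes eve (681), run (291) and odd (251) lay between these. Of the Sox, T-box, forkhead, GATA and nuclear receptor genes 26 of 50 had a peak (52.0%, median 628), led after grn and Sox21b by the T-box gene mid (2251; 1041 and 1114 in replicates 1 and 2) and SoxN (1861; 927 and 926), which acts in neural progenitors. Basic helix-loop-helix and other neural fate genes had 6 of 40 (15%), led by ss (549), elav (243), trh (239.9) and grh (122).

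The signalling lists had peaks at a few ligands with high signals. Of ligands and secreted regulators 6 of 32 had a peak (18.8%): wg, the Wnt ligand, with 2222 (1142 in replicate 1 and 1095 in replicate 2), hh with 925 (478 and 441), dpp, a BMP ligand, with 756 (403 and 356), spz with 274, upd1 with 138 and Pvf3 with 56.3. The summits of wg and hh both lay 179 bp upstream and that of dpp 130 bp downstream. Of receptors and intracellular transducers 6 of 30 had a peak (20%, median signal 118), led by the repressor gene brk (205) and the kinase gene sgg (165), and all 6 were higher in replicate 2. Axon guidance and cell adhesion genes had 6 of 38 (15.8%), led by ed (168), the Netrin receptor gene fra (149) and Ten-a (141).

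Genes of chromatin proteins had strong peaks. Of 13 Polycomb and trithorax group genes with stand-alone promoters 5 had a peak (38.5%, 17.7 to 64.5), with a median signal of 2092. Su(z)2 had 2784 (1518 in replicate 1 and 1255 in replicate 2), ph-p 2270.0 (1117 and 1059.9) and ph-d 2092 (1213 and 869), while Psc had 621 and psq 619. The first 4 encode subunits or relatives of subunits of Polycomb repressive complex 1. Of 11 genes of insulator, GA-repeat and architectural proteins 4 had one (36.4%, 15.2 to 64.6). These were CG10321 itself, Clamp with 1060.1 (660.4 and 431) at 487 bp downstream of the start site, psq, and BEAF-32 with 72.0. The share thus includes the gene of the tagged protein, where binding and signal from the transgene cannot be told apart. TFIID, Mediator and RNA polymerase II genes had 1 of 20 (5%), Polr2F with 82.9.

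Ribosomal protein genes had peaks of middling signal close to the start site. Of 33 cytoplasmic ribosomal protein genes with stand-alone promoters 12 had a peak (36.4%, 22.2 to 53.4), with a median signal of 111, the same as that of all stand-alone promoter peaks. The strongest were RpL23A with 161 (90.2 in replicate 1 and 78.2 in replicate 2), RpL24 with 138 (78.1 and 61.2), RpL22 with 137 (88.4 and 49.8) and RpS4 with 132 (87.7 and 39.4). Of the 12 genes 11 were higher in replicate 1, against 54.7% of all stand-alone promoter peaks. Their summits lay a median of 33 bp from the start site, and none of them held GAGAGAG. Translation factor genes had 6 of 26 (23.1%), led by eIF6 (524) and eEF1gamma (180.1). Chaperone and heat shock genes had 3 of 16, Hsp27 (205), stv (69.7) and Hsp26 (66.0), and cell cycle genes 3 of 20, CycE (113), dap (66.3) and gem (66.0).

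The remaining lists held small counts of peaks or none, to be read beside the 7.53% of all stand-alone genes. That share lies within the interval of the muscle structure genes and close to the share of the neurotransmission genes. Muscle structure genes had 4 of 22 (18.2%, 7.31 to 38.5), wupA (143), sls (131), up (109) and Mlp60A (74.3), and neurotransmission and ion channel genes 2 of 28 (7.14%), elav (243) and Sh (89.1). No peak was at the stand-alone promoters of 153 chemosensory receptor genes, which allows a share of up to 1.96%, or of 108 cuticle protein genes (up to 2.78%). None was at 43 respiratory chain and ATP synthase genes (up to 6.98%), 22 proteasome genes (up to 13.6%) or 16 mitochondrial ribosomal protein genes (up to 18.8%). Genes with a head-to-head neighbour at any start site were left out of these counts. Of those left out, 1 cuticle protein gene and 1 respiratory chain gene had a stand-alone promoter peak at another start site. The limits given cover counting error only. Those of the proteasome and mitochondrial ribosomal protein lists exceed 7.53%, so their lack of a peak does not set these lists apart.

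**Figure D5:**
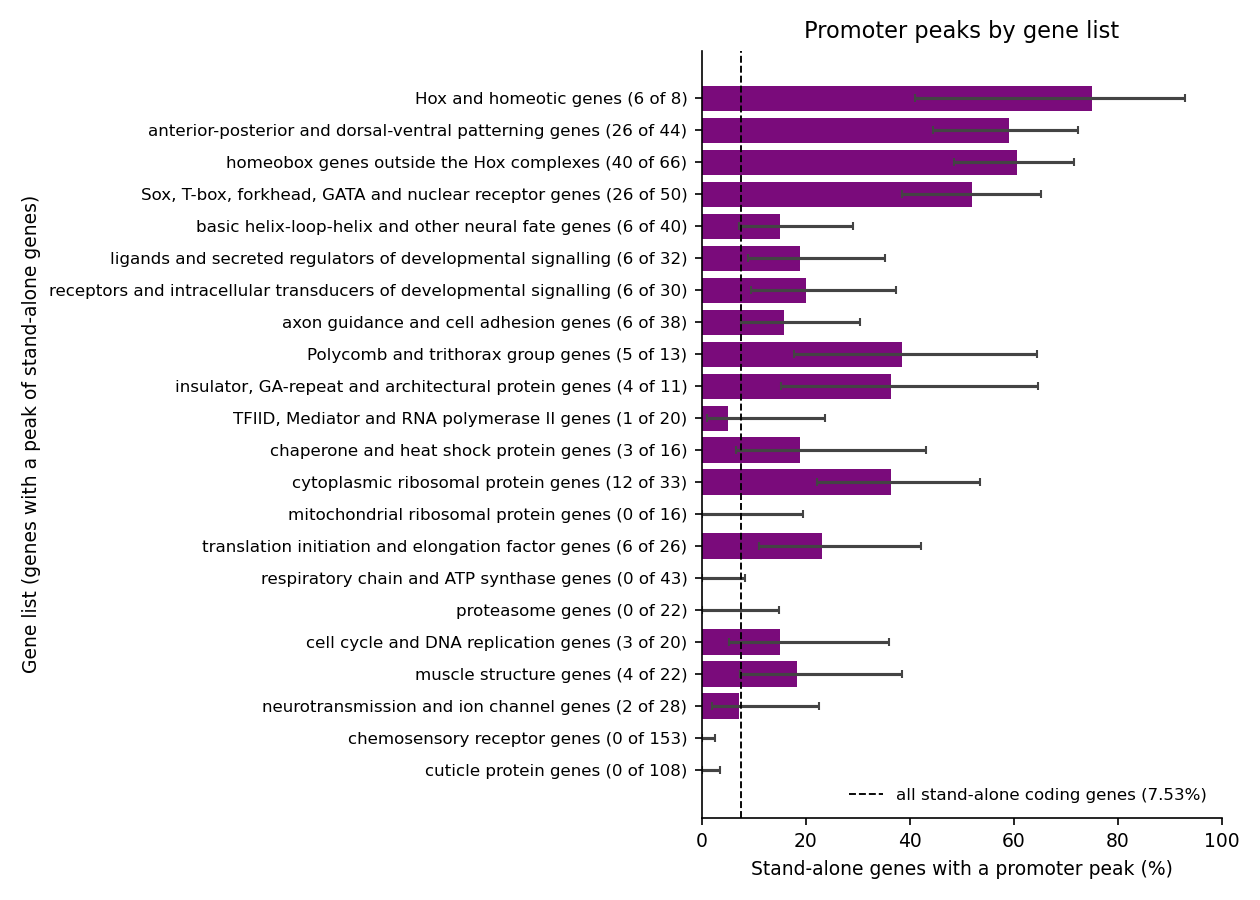
Share of stand-alone genes with a promoter peak (x axis, percent, with Wilson 95% intervals as bars) in 22 gene lists (y axis, with counts); the dashed line marks the 7.53% of all stand-alone coding genes. The homeobox list stands at 60.6%, the cytoplasmic ribosomal protein list at 36.4%, and the chemosensory receptor and cuticle protein lists at 0.

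Genes under stand-alone promoter peaks were long, with long introns at their starts. The 183 genes with a peak in signal group 1 had a median length of 8.42 kb (quartiles 4.18 and 18.4) and a first intron of 2.28 kb (0.528 to 6.56). The 488 genes with weaker peaks had 6.51 kb (2.75 to 17.8) and 1.57 kb (0.231 to 6.12), and the 8245 stand-alone genes with no peak had 1.94 kb (1.06 to 4.72) and 0.072 kb (0.056 to 0.723). A single start site was annotated for 47.0% of the first group, 45.3% of the second and 78.9% of the genes with no peak. A gene with more start sites has more places for a peak to be counted, and the part of this in the difference was not tested.

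Most genes had 1 such peak: 681 of 771 had 1, 79 had 2, 9 had 3 and 2 had 4. Ptpmeg2, a tyrosine phosphatase gene with 6 annotated start sites, had peaks at 4 of them, with signals from 54.6 to 247. Dnc, the cAMP phosphodiesterase gene, had peaks at 4 of its 9 start sites, with signals from 71.9 to 191. Among genes with 3 were ph-p (92.4 to 2270.0), the GATA factor gene pnr (14.1 to 847), psq (79.9 to 619), lola (76.5 to 323), a transcription factor gene of axon growth, and Diap1 (66.0 to 313), an inhibitor of apoptosis. CG34117 had all 3 at its 1 start site (9.05 to 51.9), and the others were bbx, Mob2 and Moe.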

How the data were processed

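The authors deposited peak lists in dm6 coordinates. Per the deposited file lists, each replicate had a ranked and a thresholded list, and the conservative thresholded list used here drew on both replicates. Column 7 of the deposited lists held a signal value per peak on a scale that is not given, column 5 a score of 830 to 1000 for these peaks, and column 10 the summit. For the control, the aligner and the peak caller the name is not given in the sources used here. Without read counts, sequencing depth is unknown, and intervals cover counting error only. A further 32 columns with values of single inputs were not used.

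Gene models came from Ensembl release 115 without transposable elements (13968 coding genes, 19276 start sites), and sequence from the RefSeq copy of dm6. The head-to-head limit was applied to the nearest start site, and for shares of genes to all start sites. The 6 peaks on unplaced sequences were left out of 3012. Replicate values are those of the ranked peak that overlapped by at least 1 bp. Shares were compared by two-sided Fisher's exact tests with Benjamini-Hochberg adjustment within each family and called at 0.05, with Wilson intervals for shares and Newcombe intervals for differences, both at 95%. The limit for a count of 0 is 3 counts of the total. Peaks and genes are not biological replicates, so p-values speak of these lists and not of variation among embryos. Functions were tested on simulated data. The work used Python 3.11.15, NumPy 2.4.6, SciPy 1.17.1 and Matplotlib 3.10.9.

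The members, gene lists and consensus sequences were chosen with earlier results of these data known. Of 638 list symbols 24 had no exact match and were left out. Named were the 25 strongest peaks found in both thresholded replicate lists, apart from an item not reported here. Also named were up to 4 bound genes of each list by signal and genes with at least 3 peaks. The 5 longest GA repeats and the 5 weakest peaks were named as well. Genes beyond these were named after their values had been seen. Sequences on 2R were not used. An item that the rule names is not reported here. There were 19 alternative settings, 13 of them planned: the other list, stronger peaks, each replicate's list alone, other promoter and head-to-head limits, and a wider window.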

Additional observations from a re-analysis of the deposited data

Results flagged for a closer look

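Peaks at stand-alone promoters were also present among high-scoring peaks that the conservative list does not hold. In the ranked list of both replicates, 124 peaks on the main arms scored at least 830, the lowest score of the conservative list, but were absent from it, and 30 of them lay at stand-alone coding promoters. On 3R there were 16, on 2L 9, on 2R and 3L 2 each and on X 1. Their median signal was 90.7. The strongest were at ssp3, a spindle protein gene, with a signal of 3174 at 341 bp upstream, at eIF4A, a translation initiation factor gene, with 2439 at 89 bp upstream, and at chic, which encodes profilin, with 1106. Larp had 360.2 and cbt 255. With these peaks the number of stand-alone promoter peaks was 904. They entered none of the comparisons above.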

How the results depend on the processing

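No paired analysis was possible because both samples belong to 1 group. Under the 13 planned settings, 67 values kept their direction and side of the threshold, or a count within 1.5 times, 14 counts moved further, 3 differences newly passed and 1 turned direction, and the cause was not tested. The difference in the share found in both replicate lists turned to -3.03 points among the stronger peaks, and that in the share above the common median to -0.423 points without the regulator lists, neither of them called. The number of stand-alone promoter peaks was 485 among peaks at or above the list's median signal and 556 with a promoter limit of 200 bp. The difference in the share above the common median signal, 4.47 points, passed at 14.3 points among the stronger peaks, and at 9.40 to 14.1 points in the lists of the single replicates. The GAGA difference of 8.92 points passed in the settings with other lists, limits and windows (7.43 to 16.4 points). Within signal group 1 it was 10.6 points and within group 4 4.05 points, neither of which passed with fewer peaks. The 2 summit sequences called against head-to-head promoters were 1 among the stronger peaks, 4 with a promoter limit of 200 bp, 4 and 5 with head-to-head limits of 500 and 2000 bp, 6 in windows of 100 bp, and 1 to 2 in single replicates. The 3 called against peaks outside promoters were 0 among the stronger peaks (Fisher's exact test), 5 with 200 bp, 0 with 1000 bp, and 0 to 2 in single replicates. The 9 core promoter sequences were 5 among the stronger peaks and 5 to 7 in single replicates. Unknown depth limits all statements on absent peaks.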

Other observations

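Among the listed genes with a peak were some neighbouring paralogs, picked out because each of them carried one. The T-box genes Doc1, Doc2 and Doc3, which act in the heart and amnioserosa, had signals of 1154, 1345 and 1267, and Doc2 had a GA run of 20 letters within 100 bp of its summit. The Iroquois genes caup and ara had 2175 and 637, the Bar genes B-H1 and B-H2 1718 and 514, and the ladybird genes lbe and lbl 1348 and 473, so that within each of these 3 pairs the signals differed widely. The forkhead genes slp1 and slp2 had 554 and 192, and all of these summits lay upstream.

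In the window from 250 bp upstream to 50 bp downstream, further sequences differed in share between stand-alone start sites with a peak (those nearest to a summit) and those without, with no test made. CA repeats (CACACACA) were at 11.9% of 821 start sites with a peak (Wilson 95% interval 9.89 to 14.3) and 6.40% of 12418 without (5.98 to 6.85), and the TCT initiator core at 15.1% (12.8 to 17.7) and 9.42% (8.92 to 9.95). The GATA site GATAAG was at 13% (10.9 to 15.5) and 18.4% (17.7 to 19.1), and the homeodomain core at 13% (10.9 to 15.5) and 17.2% (16.6 to 17.9). The Zeste site TGAGTG, at 8.01% of stand-alone and 5.05% of head-to-head promoter summits (Fisher's exact test, adjusted p = 0.17), passed with a promoter limit of 200 bp (8.99% and 3.27%, exact adjusted p = 0.0033) and with head-to-head limits of 500 bp (exact adjusted p = 0.0024) and 2000 bp (0.034).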
